A study of Homo sapiens with 4 samples.

Results

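The genes examined here encode 8 factors of nonsense-mediated decay, UPF1, UPF2, UPF3A, UPF3B, SMG1, SMG5, SMG6 and SMG9, and their nascent transcripts were followed intron by intron in K562 cells that carried mutant or wild-type SF3B1. The members were chosen by name, and their rows were found through the GENCODE 29 transcript attached to each intron. They made up 8 of the 17786 genes with a read, and 224 of the 209518 unique annotated introns with a read belonged to them. K562 is an established line from a chronic myeloid leukaemia, and SF3B1 belongs to the U2 particle of the spliceosome, where it holds the branch point region of an intron. One group had the K700E substitution of SF3B1 (K700E, n = 2) and the other was wild type for SF3B1 (WT, n = 2). In both groups, per the labels, expression of the modified allele was induced with doxycycline at 1 µg/ml and the cells were harvested at day 4. The labels do not say whether a line was 1 clone, what the endogenous alleles were, or whether replicates came from separate cultures, so the p-values below cover only how far these 4 samples scatter, and that scatter may be technical. Chromatin-bound RNA, freed of poly(A) RNA and rRNA, was sequenced as PacBio long reads, and the comparison asks how complete splicing was before transcription ended.

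Nonsense-mediated decay removes messenger RNAs on which translation ends too early, and it also lowers many normal transcripts. The helicase UPF1 binds the terminating ribosome, UPF2 and the UPF3 proteins connect it to the exon junction complexes that splicing leaves behind, and the kinase SMG1 phosphorylates it. Phosphorylated UPF1 then recruits SMG6, an endonuclease, and SMG5, which brings in decay enzymes. Mutant SF3B1 is known for the use of cryptic 3′ splice sites, and many of the resulting messages are substrates of this pathway.

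Depth differed between the libraries. The K700E samples held 459707 and 909656 read-intron overlaps over unique introns, and the WT samples 1346775 and 1185019. K700E replicate 1 was the shallowest, with 7717 introns at 10 reads or more, against 25166 in K700E replicate 2 and 34512 and 30684 in the WT samples. A long read that crosses several introns counts once in each, so overlaps exceed reads. No molecular identifiers are mentioned in the labels, and all intervals below cover counting error only. The labels call the cells epithelial. Of 10 K562 and erythroid marker genes 8 had reads, and EPOR and KLF1 were at 0. Their summed counts at the most-read introns were 64 and 197 in the K700E samples and 270 and 376 in the WT samples. TFRC alone held 45 and 96 of these in the K700E samples and 205 and 189 in the WT samples. GATA1 had 1 and 3 reads in the K700E samples and 0 and 6 in the WT samples. Summed counts of 10 epithelial markers were 6 and 11 in the K700E samples and 25 and 18 in the WT samples, with KRT5, CLDN4 and GRHL2 at 0. Summed counts of 6 markers of other blood lineages were 34 and 161 in the K700E samples and 29 and 97 in the WT samples, with MS4A1 and CD14 at 0. Nearly all of these were reads of PTPRC, the leukocyte surface phosphatase CD45, with 33 and 161 in the K700E samples against 28 and 93 in the WT samples. The part of these marker levels in the results below was not tested. The deposited counts hold no base calls, so the SF3B1 genotype itself could not be read from them.

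SMG1 took most of the reads. Its introns gathered 583 and 1444 overlaps in the K700E samples, against 3141 and 1859 in the WT samples, and 22 of its 71 annotated introns had at least 10 reads in every sample. No intron of the other 7 genes reached that depth in all 4 libraries. A reason for care with SMG1 lies in its sequence: 7 annotated pseudogenes, SMG1P1 to SMG1P7, lie on the same chromosome 16 and copy the first part of the gene. SMG1 exon 29 (chr16:18858170-18858290, minus strand) and its match in SMG1P1 (chr16:22491707-22491827, plus strand) are shown from the GENCODE 29 transcripts (GRCh38) because they show how few bases separate gene and copy. Capitals mark the 4 differing bases of the 121.

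SMG1 exon 29: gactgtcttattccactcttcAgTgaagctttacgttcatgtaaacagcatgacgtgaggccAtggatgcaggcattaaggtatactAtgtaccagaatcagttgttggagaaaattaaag
SMG1P1: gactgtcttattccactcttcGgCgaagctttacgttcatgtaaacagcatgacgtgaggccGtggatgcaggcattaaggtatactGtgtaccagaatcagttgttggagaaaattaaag

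Across SMG1, exons 1 to 29 of the reference transcript (ENST00000446231, 62 introns) matched an SMG1 pseudogene transcript at 91.9 to 100% identity, with a median of 98.8%, and 9 of the 29 were identical to a copy. The best matches of exons 30 to 63 reached 50.3 to 62.6%. The 7 pseudogenes together held 3961 and 5302 overlaps in the K700E samples and 6981 and 6907 in the WT samples. These were 6.79 and 3.67 times the overlaps of SMG1 in the K700E samples and 2.22 and 3.72 times in the WT samples. The sources used here do not say how reads that fit several copies were assigned, so counts over introns 1 to 28 may be shared between gene and copies.

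The levels of the 8 genes spanned 3 groups that held in every library. SMG1, the kinase, stood at 1268 and 1587 overlaps per 1000000 overlaps of the library (OPM) in the K700E samples and 2332 and 1569 in the WT samples. SMG5, SMG6, UPF1 and UPF2 lay between 50.0 and 294 OPM in all 4 samples. UPF2, the adaptor that joins UPF1 to UPF3 proteins, had 204 and 113 OPM in the K700E samples against 62.4 and 110 in the WT samples. SMG6 had 207 and 242 OPM in the K700E samples against 177 and 188 in the WT samples, and SMG5 had 185 and 165 OPM in the K700E samples against 294 and 196 in the WT samples. Both K700E samples thus lay above both WT samples in UPF2, by a narrow margin, and in SMG6, as they did in 24.7% of the 5124 genes with at least 10 overlaps in every sample, and below them in SMG5, as in 11.6%. This depended on the scaling. With trimmed mean of M-values (TMM) scaling to counts per 1000000 (CPM), UPF2 had 203 and 117 CPM in the K700E samples against 75.2 and 123 in the WT samples, and SMG6 had 205 and 250 CPM in the K700E samples against 213 and 211 in the WT samples, so that both overlapped. SMG1, with 1257 and 1638 CPM in the K700E samples against 2812 and 1761 in the WT samples, and SMG5, with 183 and 170 CPM in the K700E samples against 355 and 220 in the WT samples, then had both K700E samples below both WT samples, as did 17.3% of genes. No member lay above on that scale, against 18.2%. Scaled to library totals, UPF1, with 50.0 and 74.8 OPM in the K700E samples against 59.4 and 75.1 in the WT samples, and SMG1 overlapped. UPF3A, UPF3B and SMG9 stayed at or below 48.9 OPM, and UPF3B, the main exon junction complex binder of the UPF3 pair, had no overlap in K700E replicate 1, where 3 overlaps would be 6.53 OPM. Because overlaps sum over introns, these levels also grow with the number of introns a gene has and are not per length. Neighbours in the order of levels, such as SMG5 and SMG6, exchanged places between samples.

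**Figure D1:**
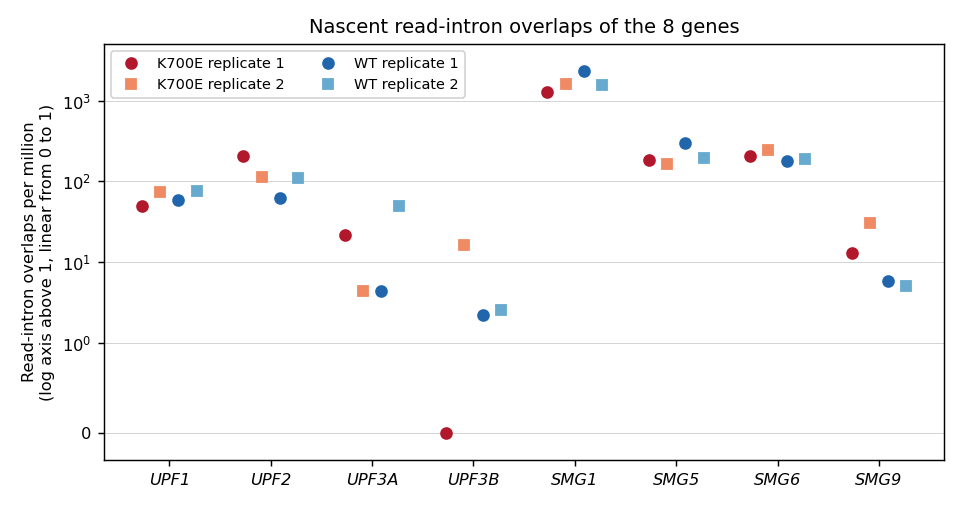
Read-intron overlaps per 1000000 (y, log axis above 1) for each gene in the 2 K700E samples (red and orange) and the 2 WT samples (blue and light blue), 1 point per sample. SMG1 lies above 1000 in all 4 samples, and UPF3B has a point at 0 in K700E replicate 1.

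Reads at a gene's most-read intron count each read once, and only SMG1 had enough of them for a test. SMG1 intron 4 held 13 and 43 reads in the K700E samples against 108 and 48 in the WT samples, and after TMM scaling the level was 631 and 1184 CPM in the K700E samples against 2157 and 1020 in the WT samples. The WT samples stood on both sides of K700E replicate 2. The log2 change was -0.78 ± 0.65 (SE) with an adjusted p of 0.721 (edgeR quasi-likelihood test, Benjamini-Hochberg over 793 genes). Of those genes 0% passed, 7.57% had an unadjusted p under 0.05 and 53.2% had a log2 change below 0. In bulk RNA, fewer cells making a transcript and less transcript per cell cannot be told apart.

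With overlaps summed over all introns of a gene, 5 members could be tested. None passed, against 0.0781% of 5124 genes, and none had an unadjusted p under 0.05, against 6.77%. The log2 changes were -0.29 ± 0.76 for UPF1, 0.68 ± 0.69 for UPF2, -0.66 ± 0.52 for SMG1, -0.70 ± 0.61 for SMG5 and 0.10 ± 0.61 for SMG6, each with its SE, with adjusted p-values of 0.852 to 0.990 in the same edgeR fit. The change was below 0 in 3 of the 5, against 50.1% of all genes. Of 15 other genes of the pathway that could be tested, none passed. DCP2, the decapping enzyme, had the smallest p of these, with a log2 change of -1.25 and an unadjusted edgeR p of 0.0466. It was the only 1 of the 15 under 0.05, against 6.77% of all genes. EIF4A3 (log2 change -1.39, unadjusted edgeR p of 0.0775) and PABPC1 (-1.11, 0.0833) came next.

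Splicing efficiency, the share of overlaps that carried the junction, could be compared in the same 5 genes, those with at least 10 overlaps in every sample. UPF1 had 52.2 and 44.1% in the K700E samples (12 of 23 and 30 of 68 overlaps). Its WT samples had 85.0 and 49.4% (68 of 80 and 44 of 89). UPF2 had 43.6 and 63.1% in the K700E samples against 78.6 and 43.1% in the WT samples. In both genes WT replicate 1 stood above the other 3 libraries, and the groups overlapped. SMG1 had 71.4 and 85.5% in the K700E samples against 87.1 and 80.6% in the WT samples. For SMG5 the values were 84.7 and 87.3% in the K700E samples against 89.4 and 85.8% in the WT samples. SMG6 had 25.3 and 41.8% in the K700E samples against 47.1 and 35.4% in the WT samples. In each of these 3 genes WT replicate 1 was highest, followed by K700E replicate 2, WT replicate 2 and K700E replicate 1.

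The difference between the genotypes was smaller than the spread between replicates of at least 1 genotype in all 5 genes. UPF1 averaged 48.1 ± 5.70% in the K700E samples and 67.2 ± 25.1% in the WT samples (SD, n = 2 each), a difference of -19.1 percentage points. UPF2 averaged 53.4 ± 13.8% in the K700E samples and 60.8 ± 25.1% in the WT samples, a difference of -7.46 points. The mean of SMG1 was 78.4 ± 10.0% in the K700E samples and 83.9 ± 4.60% in the WT samples, that of SMG5 was 86.0 ± 1.86% in the K700E samples and 87.6 ± 2.56% in the WT samples, and that of SMG6 was 33.5 ± 11.7% in the K700E samples and 41.2 ± 8.23% in the WT samples. The log2 odds ratios were -1.29 ± 0.97 for UPF1, -0.46 ± 0.89 for UPF2, -0.46 ± 0.51 for SMG1, -0.21 ± 0.47 for SMG5 and -0.45 ± 0.55 for SMG6 (± SE), each with an adjusted p of 0.9999 in edgeR's quasi-likelihood test over 5088 genes. Of those genes 0% passed and 3.34% had an unadjusted p under 0.05, while no member did. All 5 means were lower in the K700E samples, as were those of 62.4% of all genes, and the median difference was -7.46 points for the members and -2.54 for all genes. In none of the 5 genes did both K700E samples lie below both WT samples, which 21.1% of all genes showed, and in none did they lie above, against 10.3%. The direction rested on single libraries in 4 of the 5 genes: without K700E replicate 1 the log2 odds ratio was 0.12 for UPF2, 0.15 for SMG1 and 0.039 for SMG6, and without WT replicate 1 it was 0.60 for UPF2 and 0.041 for SMG5. That of UPF1 ranged from -2.63 to -0.11 with 1 sample left out.

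The libraries also differed over all genes. The median efficiency over all 5088 genes was 47.8 and 53.1% in the K700E samples and 59.1 and 50% in the WT samples, so that WT replicate 1 was highest and K700E replicate 1 lowest. SMG1, SMG5 and SMG6, 3 of the 5 members, had the 4 libraries in this same order, while UPF1 and UPF2 did not. On the most used introns 2 of the 5, SMG1 and SMG6, had it. The part of this library-wide shift in the members' values was not tested. Averaged over the 4 samples and over all introns, SMG5 stood at the 96.0th percentile of all genes and SMG1 at the 92.2nd. UPF1 and UPF2 stood at the 58.9th and 58.0th, and SMG6 at the 25.2nd. The order changed on the most used introns, where SMG5 stood at the 95.1st percentile and SMG1 at the 77.5th. SMG6 then stood at the 52.8th, UPF1 at the 44.2nd and UPF2 at the 19.5th.

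**Figure D2:**
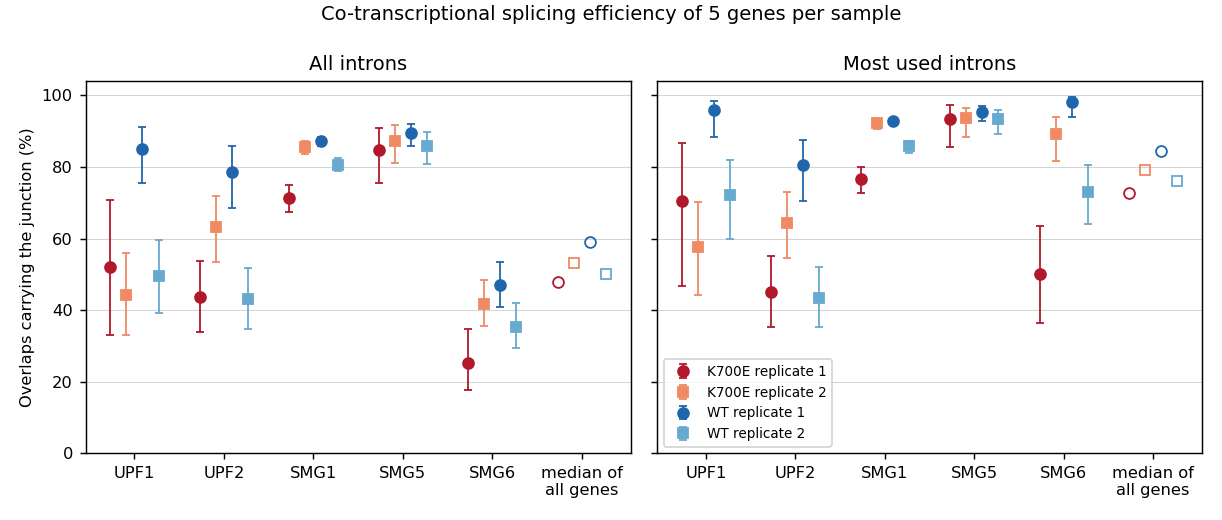
Percentage of read-intron overlaps carrying the junction (y) for 5 genes per sample, over all annotated introns (left) and over the most used of overlapping introns (right), with 95% Wilson intervals that treat overlaps as independent; open symbols give the median of all genes. K700E samples are red and orange and WT samples blue and light blue, and WT replicate 1 is highest in all 5 genes in both panels.

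SMG6, the endonuclease, had the lowest value over all introns, and many of its overlaps fell on annotated alternatives. The part of the annotation in this low value was not tested. Of its 35 annotated introns 17 overlapped a more used intron of the gene, and 16 of those had no junction read, although reads over them were counted as unspliced. The 17 took 404 overlaps and 1 junction read, while the most used introns carried 308 junction reads. SMG6 introns 1 and 18 also overlap SRR and HIC1 on the other strand, and the sources used here do not say whether reads were counted by strand. Over the 8 genes, 44 of the 49 such introns had no junction read. With the most used intron kept at each place, SMG6 had 50 and 89.2% in the K700E samples against 98.2 and 73.1% in the WT samples. The median of all genes rose too, to 72.7 and 79.2% in the K700E samples and 84.5 and 76.0% in the WT samples. SMG6 lay below that median in K700E replicate 1 and WT replicate 2 and above it in K700E replicate 2 and WT replicate 1. UPF1 on the same measure had 70.6 and 57.7% in the K700E samples against 95.8 and 72.1% in the WT samples. It was the only 1 of the 5 genes whose groups did not overlap, and 20.8% of 4285 genes lay below in the same way. The margin was narrow, with 12 of 17 overlaps spliced in K700E replicate 1 and 44 of 61 in WT replicate 2. No member passed the test on these introns either, while 1 gene of the 4285 did.

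SMG5 was the most evenly spliced of the 5 on the most used introns, with 93.5 and 93.6% in the K700E samples against 95.4 and 93.4% in the WT samples. UPF2 was lowest in 3 of the 4 samples, with 45.1 and 64.4% in the K700E samples against 80.5 and 43.4% in the WT samples. Among SMG5 introns with at least 20 reads over the 4 samples, 15 of 18 were above 90% and 7 were spliced in every read. Its penultimate intron 20 (chr1:156250997-156251402) carried the junction in 8 of 21 reads, the lowest of the gene. UPF2 intron 17 (chr10:11942764-11943063), with 9 of 27 reads spliced, was the lowest of the 8 UPF2 introns at that depth. UPF1 intron 13 (chr19:18856301-18856876), with 12 of 22, was the lower of only 2 UPF1 introns at that depth. Of the 11 SMG6 introns of the reference transcript at that depth, intron 5 (chr17:2292631-2292870) was lowest, with 23 of 30 reads spliced (76.7%). Introns with fewer reads, some of them with lower values, were not ranked. These introns were singled out after their values had been seen.

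Within SMG1, reads and efficiency varied along the gene. Introns 1 to 28, whose flanking exons are copied in the pseudogenes, had medians of 12 and 32.5 reads in the K700E samples against 67.5 and 33 in the WT samples. Introns 30 to 62, without copies, had medians of 6 and 9 reads in the K700E samples against 28 and 22 in the WT samples. The efficiency of introns 1 to 28 was 77.5 and 95.2% in the K700E samples against 94.3 and 88.3% in the WT samples. For introns 30 to 62 it was 75.4 and 87.2% in the K700E samples against 91.0 and 82.6% in the WT samples. The uncopied introns were thus lower than the copied ones in all 4 libraries, and neither group of introns separated the genotypes. The 7 pseudogenes pooled over all their introns had 48.0 and 77.4% in the K700E samples against 81.1 and 64.0% in the WT samples. They differed widely from each other. SMG1P6, the lowest in its mean, had 4.36 and 33.6% in the K700E samples against 19.4 and 9.76% in the WT samples. SMG1P1, the highest, had 86.1 and 92.5% in the K700E samples against 92.1 and 88.2% in the WT samples. In K700E replicate 1, SMG1P6 held 1445 of the 3961 pooled overlaps.

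**Figure D3:**
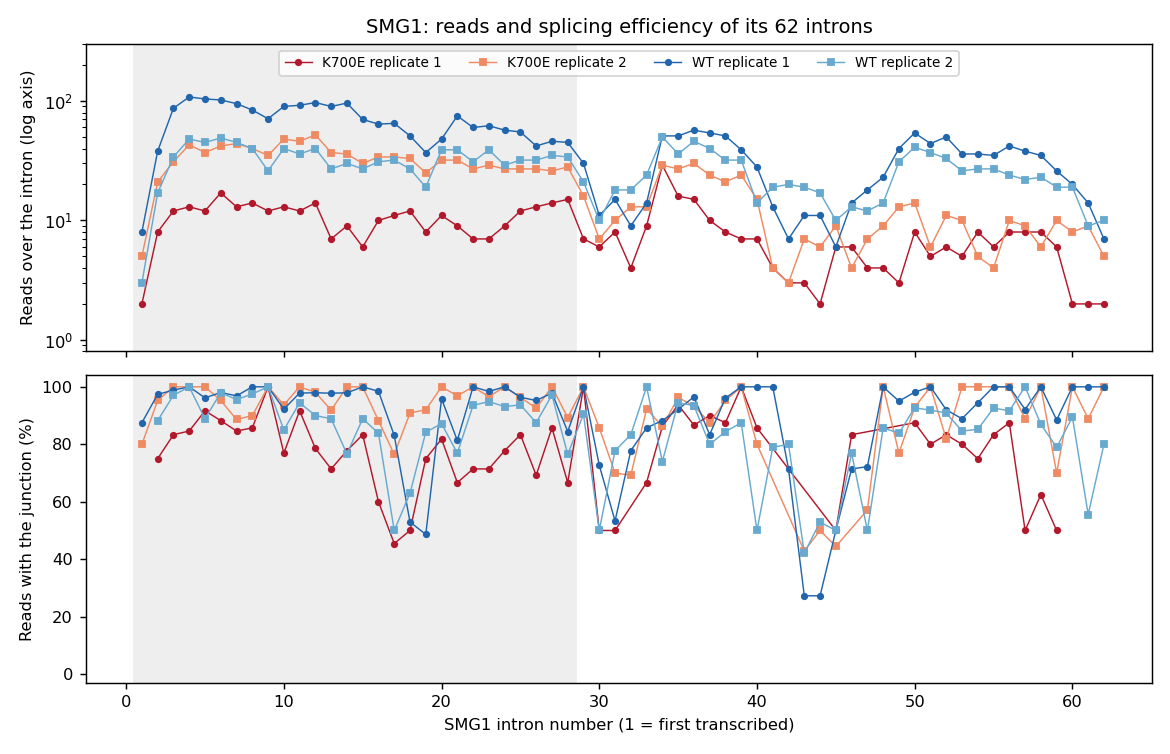
Reads over each of the 62 SMG1 introns (top, log axis) and percentage of reads with the junction (bottom, points with at least 5 reads), by intron number, for the K700E samples (red and orange) and the WT samples (blue and light blue); grey marks introns 1 to 28, whose flanking exons have pseudogene copies. Introns 43 to 45 lie at or below 52.9% wherever plotted, and K700E replicate 1 has the fewest reads over most introns.

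A run of poorly spliced introns lay at 43 to 45, in the part of SMG1 without copies. Intron 43 (chr16:18838467-18838550, 84 nt) carried its junction in 0 of 3 and 3 of 7 reads in the K700E samples and in 3 of 11 and 8 of 19 in the WT samples, together 35.0% of 40 reads. Intron 44 had 0 of 2 and 3 of 6 in the K700E samples against 3 of 11 and 9 of 17 in the WT samples. Intron 45 had 3 of 6 and 4 of 9 in the K700E samples against 3 of 6 and 5 of 10 in the WT samples. All 3 were at or below 52.9% in every library, but they were singled out for their low values, and K700E replicate 1 held only 2 to 6 reads over each. Of the 61 SMG1 introns with at least 20 reads in total, 32 were above 90% and intron 43 was the lowest. The whole of intron 43 is shown because of that place, with capitals marking the 6 exon bases at either end (transcript strand, GENCODE 29, GRCh38).

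SMG1 intron 43: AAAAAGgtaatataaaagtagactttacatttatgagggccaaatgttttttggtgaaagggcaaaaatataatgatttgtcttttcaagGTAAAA

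Its last 30 bases were 46.7% pyrimidine. The ends of 4 deeper SMG1 introns that annotated transcripts retain are shown for comparison, since the U2 particle with SF3B1 acts near the 3′ end of an intron. Each gives the last 40 intron bases and, in capitals, the first 6 bases of the next exon, from introns 7 (chr16:18885163-18885540), 11 (chr16:18877233-18879494), 27 (chr16:18859182-18859555) and 28 (chr16:18858291-18859021), all on the minus strand.

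SMG1 intron 7: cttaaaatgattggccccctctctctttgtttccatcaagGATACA
SMG1 intron 11: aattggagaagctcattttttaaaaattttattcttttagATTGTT
SMG1 intron 27: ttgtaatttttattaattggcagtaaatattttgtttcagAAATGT
SMG1 intron 28: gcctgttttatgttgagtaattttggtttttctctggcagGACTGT

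The last 30 bases of these were 76.7, 66.7, 53.3 and 60% pyrimidine, each above intron 43. Intron 7 was spliced in 84.6 and 88.6% of reads in the K700E samples against 96.8 and 95.6% in the WT samples. Intron 28 had 66.7 and 89.3% in the K700E samples against 84.4 and 76.5% in the WT samples. Introns 11 and 27 reached 100% in K700E replicate 2 and were at 91.7 and 85.7% in K700E replicate 1, against 94.4 to 97.8% in the WT samples. Intron 27 had a lower pyrimidine share than intron 28 and a higher efficiency in every library. Introns 7, 11, 27 and 28 lie in the copied part of the gene, where counts may be shared with pseudogenes, and intron 43 does not. Intron 43 was also singled out for its low value. Whether the pyrimidine share bears on efficiency was not tested.

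Of the 22 SMG1 introns at 10 or more reads in every sample, 18 lay among the copied introns 3 to 28 and 4 were introns 34 to 37. Intron 9 was spliced in every read of every sample and was not tested. None of the other 21 passed (edgeR quasi-likelihood test, adjusted p of 0.985 to 1), against 0.0982% of 5093 introns, and none had an unadjusted p under 0.05, against 3.06%. Over the 22 introns the K700E mean was lower at 16, higher at 5 and equal at 1. The 22 lie in 1 gene and a long read can cross several of them. Tallies over them are therefore not counts of separate observations, unlike shares over introns of many genes. Of all 6141 introns at that depth 51.1% were lower, with 3137 lower, 1952 higher and the rest equal. The median difference was -4.81 points, against -0.26 for all introns. The 6141, unlike the 22, include introns overlapped by a more used one. Equal introns count as neither lower nor higher in every share of the 6141 given here. Both K700E samples lay below both WT samples at introns 6, 7, 8 and 36, 4 of 22 against 16.5% of all introns, and above them at intron 37, against 7.62%. Replicates differed in 1 direction too: K700E replicate 1 was below K700E replicate 2 at 19 of the 22, against 43.1% of all introns, and WT replicate 2 was below WT replicate 1 at 18 of the 22, against 47.4%.

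The intron with the lowest mean efficiency of the 22 was intron 17 (chr16:18870712-18870800, 89 nt). It was spliced in 5 of 11 reads (45.5%, Wilson interval 21.3 to 72.0%) and 26 of 34 reads (76.5%, 60.0 to 87.6%) in the K700E samples. In the WT samples it was spliced in 54 of 65 reads (83.1%, 72.2 to 90.3%) and 16 of 32 reads (50%, 33.6 to 66.4%). The groups overlapped, and the log2 odds ratio was -0.23 ± 0.96 with an adjusted p of 0.993 in edgeR's quasi-likelihood test. Each genotype had 1 library above 50% and 1 library at or below it. Without WT replicate 1 the log2 odds ratio was 1.13, and without K700E replicate 1 it was 0.32.

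Intron 16 (chr16:18870889-18871363, 475 nt), next to it, had the largest difference between the genotypes. It was spliced in 6 of 10 reads (60%) and 30 of 34 reads (88.2%) in the K700E samples, against 63 of 64 (98.4%) and 26 of 31 (83.9%) in the WT samples. The mean difference was -17.0 points, but K700E replicate 2 lay above WT replicate 2. The log2 odds ratio was -1.70 ± 1.34, with an adjusted p of 0.985 in the same test.

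Intron 8 (chr16:18884168-18885089) had the smallest unadjusted p of the 21, 0.0616 in edgeR's quasi-likelihood test, and an adjusted p of 0.985. It was spliced in 12 of 14 and 36 of 40 reads in the K700E samples, against 84 of 84 and 39 of 40 in the WT samples. Intron 18 (chr16:18869995-18870609) ran the other way, with 6 of 12 and 30 of 33 in the K700E samples, against 27 of 51 and 17 of 27 in the WT samples. At intron 18 the K700E mean was 12.5 points higher although K700E replicate 1 was the lowest of the 4 libraries. With K700E replicate 1 left out, 47 member introns could be tested, 42 of them in SMG1, 3 in SMG5 and 2 in SMG6. These had 10 reads in each of the other 3 samples and were neither fully spliced nor fully unspliced in all 3. K700E replicate 2 was then lower at 17 and higher at 30 of these, while 52.7% of the 12192 introns tested in these 3 samples were lower. Introns of 1 gene share long reads here too, so the 47 are not separate observations. None of the 47 passed edgeR's quasi-likelihood test, against 0.0164% of all, and 1 had an unadjusted p under 0.05, against 1.35%. That was SMG1 intron 18, with a log2 odds ratio of 2.90 ± 1.34, an unadjusted p of 0.0300 and an adjusted p of 0.999.

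**Figure D4:**
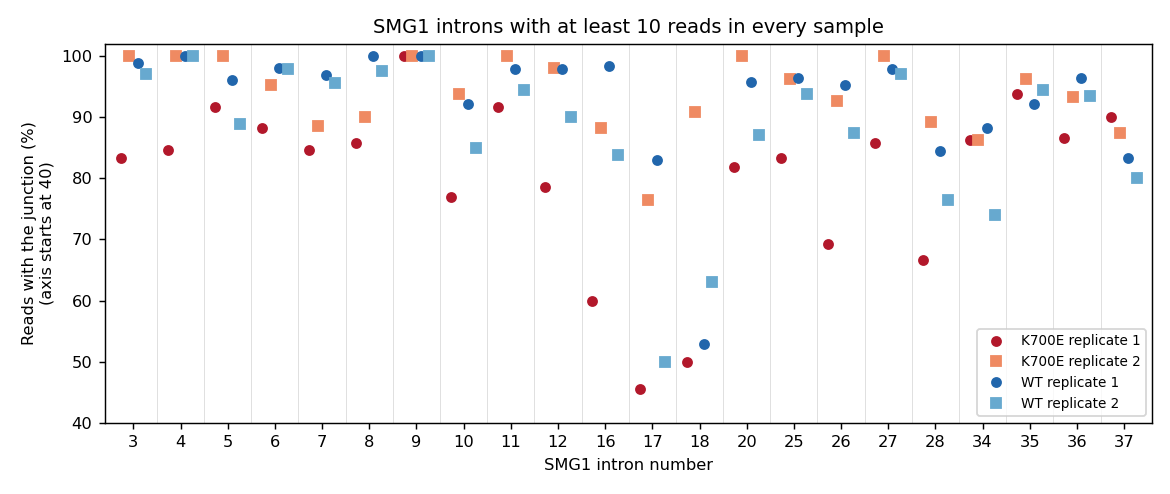
Percentage of reads with the junction (y, axis from 40) at the 22 SMG1 introns at 10 or more reads in every sample, ordered by intron number, with K700E samples (red and orange) left of WT samples (blue and light blue). K700E replicate 1 lies below K700E replicate 2 at 19 of 22 introns, and introns 6, 7, 8 and 36 have both K700E points below both WT points.

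Short introns of SMG1 were spliced less often than long ones in all 4 libraries. The 10 introns of up to 150 nt had 69.6 and 83.8% in the K700E samples against 88.0 and 70.7% in the WT samples. The 27 introns of 1000 nt or more had 82.3 and 96.7% in the K700E samples against 97.1 and 91.3% in the WT samples. The 25 in between had 74.1 and 91.9% in the K700E samples against 90.4 and 84.6% in the WT samples. Most of the short ones, introns 32, 34, 43, 44, 47, 52 and 61, lie in the uncopied part, which was itself lower in all 4 libraries. The part of length and of place in the gene in these values was not tested. The same order by length held in every sample over most used introns of all genes with at least 10 reads in every sample. Their values are means over introns, while those of SMG1 pool reads over introns of any depth, so the levels are not on 1 scale. The means were 64.4 and 65.5% in the K700E samples against 69.5 and 67.9% in the WT samples for up to 150 nt. For 1000 nt or more they were 87.6 and 91.4% in the K700E samples against 92.7 and 90.3% in the WT samples. In the other 7 genes together the shortest class was again lowest, but on few counts. Its 8 introns held 13 and 29 overlaps in the K700E samples and 37 and 41 in the WT samples. The longest class did not exceed the middle one in K700E replicate 1, K700E replicate 2 or WT replicate 2. Their 66 long introns had 58.4 and 77.9% in the K700E samples against 94.6 and 68.7% in the WT samples.

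**Figure D5:**
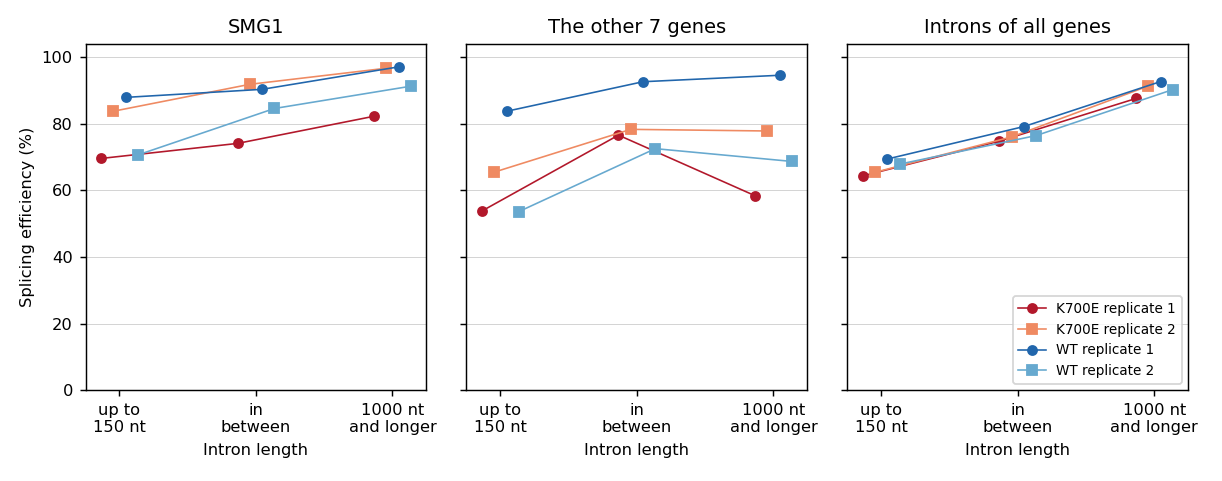
Splicing efficiency in percent (y) by intron length class for SMG1, for the other 7 genes and for introns of all genes, 1 line per sample, K700E in red and orange and WT in blue and light blue. In SMG1 all 4 lines go up from introns of up to 150 nt to introns of 1000 nt and longer. Values of SMG1 and of the other 7 genes pool reads, while those of all genes are means over introns.

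First and last introns were thinly covered. Over the 8 genes the first introns were spliced in 1 of 7 and 4 of 11 overlaps in the K700E samples against 11 of 14 and 4 of 13 in the WT samples. The last introns were spliced in 1 of 5 and 9 of 11 overlaps in the K700E samples against 13 of 13 and 10 of 13 in the WT samples. WT replicate 1 was highest at both ends, and K700E replicate 1 lowest.

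UPF3A, UPF3B and SMG9, the subunit that works with SMG8 in the SMG1 kinase complex, had too few reads for a test. UPF3A was spliced in 4 of 10 and 2 of 4 overlaps in the K700E samples against 5 of 6 and 8 of 58 in the WT samples. UPF3B was spliced in 13 of 15 overlaps in K700E replicate 2 against 0 of 3 and 1 of 3 in the WT samples. SMG9 was spliced in 4 of 6 and 4 of 28 overlaps in the K700E samples against 2 of 8 and 0 of 6 in the WT samples. At most 11 reads lay over any intron of UPF3A and at most 4 over any intron of UPF3B or SMG9, so a few long reads made up each of these values.

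Exon choice could be read at few places in these genes. Of 10 annotated cassette exons none had 10 informative reads in every sample, and over all genes 0% of 235 such exons passed, and 6 of them (2.55%) had an unadjusted p under 0.05 (edgeR quasi-likelihood test). The 1 member exon with at least 5 reads on its rarer form was an alternative 58-nt exon of SMG1 (chr16:18899987-18900044), present in 3 of the 17 annotated transcripts and lying between exons 1 and 2 of the reference transcript. Its junction to exon 2 had 2 and 2 reads in the K700E samples against 3 and 6 in the WT samples. The junction that skips it had 1 and 4 reads in the K700E samples against 7 and 1 in the WT samples. The junction from exon 1 into it had 1 and 0 reads in the K700E samples against 1 and 1 in the WT samples. These counts are too low to compare the genotypes. The exon holds an annotated start codon, and its 14 coding bases are shown in capitals, followed by 20 bases of exon 2 (minus strand, transcript ENST00000532700).

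SMG1 alternative start: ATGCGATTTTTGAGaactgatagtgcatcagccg

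SMG1 exon 3 (chr16:18896052-18896207) was skipped in 0 and 0 reads in the K700E samples against 1 and 1 in the WT samples, while its inclusion junctions had many reads. The junction to exon 4 had 10 and 31 reads in the K700E samples against 86 and 33 in the WT samples, and the junction from exon 2 had 6 and 20 in the K700E samples against 37 and 15 in the WT samples. Alternative 3′ splice sites, the events for which mutant SF3B1 is known, could hardly be seen in the members. They had 2 annotated pairs 12 to 200 nt apart, both in UPF3A, neither with a read on the rarer site, and over all genes 0% of 42 pairs passed, with none at an unadjusted p under 0.05 in edgeR's test. Sites less than 12 nt apart are not resolved in these tables, and sites that the annotation lacks are not listed, so cryptic sites of the members were not analysed here.

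Other genes of the pathway did not pass the tests either. Of 20 other genes of the pathway, among them exon junction complex, release factor and decapping genes, 15 had 10 overlaps in every sample. None passed the efficiency test, with 6 lower and 9 higher in K700E and a median difference of 2.92 points. Over all genes 62.4% were lower, with a median difference of -2.54 points. On the most used introns the direction turned, with 8 lower and 7 higher and a median of -0.44 points. Of all genes 61.7% were lower on that measure, with a median of -2.90 points. NCBP1, the large cap-binding subunit, had the smallest p of these, 0.211 (edgeR, unadjusted), with 51.8 and 75.9% in the K700E samples against 86.2 and 71.3% in the WT samples. RNPS1, an exon junction complex partner, was next, with 25.0 and 26.8% in the K700E samples against 45.7 and 32.3% in the WT samples. It was the only 1 of the 15 with both K700E samples below both WT samples, which 21.1% of all genes showed. None of the 15 lay above in this way, against 10.3%. On the most used introns RNPS1 again lay below and DCP1A lay above, against 20.8 and 10% of all genes. RUVBL1, an ATPase that acts with SMG1, had 64.3 and 100% in the K700E samples against 72.4 and 64.0% in the WT samples.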

How the data were processed

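Nascent chromatin-bound RNA of 2 K700E and 2 WT K562 samples was analysed. Per the labels' protocols, cDNA was made after ligation of a 3′ adapter and amplified by PCR. Cutadapt, minimap2 and hg38 are named in the submitters' processing notes. Their versions and the handling of multi-mapping reads: not given in the sources used here. For each annotated intron the authors deposited 2 raw counts (reads that lie over it, and those that carry its junction) and their ratio. The deposited ratio equals that of the counts within 0.005 and was not tested itself. Deposited tables of RNA 3′ end positions bear no identifiers and were not used. The K700E tables are labelled MUT2 and MUT3 inside; their assignment in the series was kept.

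Of the rows, 87.3 to 87.6% could be located on GENCODE 29 (GRCh38) from their transcript, intron index, strand and start; the rest were left out. Each unique intron was counted once. Junction counts above the read count (2.23 to 4.15% of rows) were set to it. Most used introns are those with most junction reads among overlapping introns of a gene. Exon copies were found by alignment of GENCODE transcripts with edlib 1.3.9.post1.

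The efficiency test used edgeR 4.0.16 (R 4.3.3) on paired spliced and unspliced counts, with a coefficient per sample and an interaction with genotype. It covered all features with at least 10 reads in every sample, except those fully spliced or fully unspliced in all samples. Benjamini-Hochberg adjustment and a threshold of 0.05 were used. The dispersion was held at 0 for introns and junction pairs, so that their p-values rest on a spread pooled over features, and estimated for genes. DESeq2 1.42.0, limma 3.58.1, other minimums and left-out samples were alternatives. The fits were tested on simulated data with log2 changes of 4 and 2. The intron fit called 29.3 and 2.02% of these, and 0 and 0% with an estimated dispersion. The gene efficiency fit called 68 and 9%, the cassette exon fit 55 and 0% and the nascent read fit 100 and 67%. For efficiency and exons the simulated spread between samples was set, not taken from these data. Changes of these sizes could therefore go uncalled. Within members, the introns named by rule were, among those at that depth, the lowest in mean efficiency, the largest in difference and any with an unadjusted p under 0.05; cassette exons needed 5 reads on the rarer junction; of other pathway genes the 3 of smallest p were named. The members, gene lists and tests were chosen with earlier results of these data known.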

Additional observations from a re-analysis of the deposited data

How the results depend on the processing

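Alternatives were run for the efficiency of 5 genes, SMG1 nascent reads and SMG1 introns 16 and 17. None of these passed under any of 103, whose lowest adjusted p was 0.177 (SMG1 nascent reads). The other SMG1 introns, except in the 3 deeper samples, and the summed overlaps of UPF1, UPF2, SMG5 and SMG6 were not rerun. Of these, 94 kept the direction and 9 turned it. UPF2 turned without WT replicate 1 (log2 odds ratio 0.60) and without K700E replicate 1 (0.12), SMG1 (0.15) and SMG6 (0.039) without K700E replicate 1, and SMG5 without WT replicate 1 (0.041). SMG1 intron 17 turned with the replicate block (0.20), without WT replicate 1 (1.13), without K700E replicate 1 (0.32) and in the 3 deeper samples (0.32). Over single left-out samples the log2 odds ratio ranged from -2.63 to -0.11 for UPF1, -1.66 to 0.60 for UPF2, -1.09 to 0.15 for SMG1, -0.44 to 0.041 for SMG5, -1.04 to 0.039 for SMG6, -1.62 to 1.13 for intron 17 and -3.67 to -0.21 for intron 16; the SMG1 nascent change ranged from -1.31 to -0.13.

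Counts over all features moved more. Introns called numbered 5, against 2 with an estimated dispersion, 0 with DESeq2 (123 at an unadjusted p under 0.05), 0 with limma (315), 3 with the replicate block, 2 in the 3 deeper samples and 0 to 12 with 1 sample left out (12 without WT replicate 2, 2 without K700E replicate 1 and 0 without K700E replicate 2). Genes called for efficiency numbered 0 (170 at an unadjusted p under 0.05), 1 with DESeq2, 1 with most used introns, and 0 to 0 with 1 sample left out. Genes called for nascent reads numbered 0 (60), 1 with DESeq2, 1 with no minimum, 4 with summed overlaps, 1 with the replicate block, and 0 to 53 with 1 sample left out (53 without WT replicate 2, 3 without WT replicate 1). The cause was not tested. A minimum of 20 reads left no value for SMG1 nascent reads and introns 16 and 17, and deep introns alone none for UPF1, UPF2, SMG5 and SMG6. Cassette exons and 3′ splice sites gave 0 throughout. Same-numbered samples did not deviate together (correlation -0.17 over 6141 introns), so the numbers were not taken as pairs; crossed pairs called 5 introns, 0 genes for efficiency and 0 for nascent reads. With 1 sample left out, the lone sample is assumed to vary like the other group. These alternatives include 2 chosen after seeing the data, the crossed pairs and the 3 deeper samples. Introns required at 10 reads in all 4 samples were limited by the depth of K700E replicate 1.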
